A study of Mus musculus with 18 samples.

Results

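The genes described here are 10 genes that mark fat cells, taken by name: Adipoq, Plin1, Plin4, Cidec, Cfd, Fabp4, Lpl, Lep, Retn and Pparg. They are 10 of the 54532 genes in the read count table, chosen with earlier results of these data known. The table covers 18 tumours grown in mice from PB2, a mouse breast cancer cell line, 10 with the genotype EV and 8 with the genotype p95HER2, a truncated form of the receptor HER2. All mice in both groups were given a doxycycline diet (DOX625). The sources used here do not say how p95HER2 was driven, how many PB2 clones were used, where cells were injected, or the strain, sex and age of the mice. They also do not tie each tumour to its own mouse, and a p-value here covers only the spread among these tumours, which may be technical.

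White fat cells store triglyceride in a single large lipid droplet and secrete protein hormones called adipokines. The nuclear receptor encoded by Pparg switches on this programme together with C/EBP transcription factors. Coat proteins of the droplet, the lipase that feeds it and some of the adipokines are among the targets of this receptor. The mammary gland lies within a fat pad and the skin has a layer of fat beneath it, and tumours of breast cancer cells can border on both. Several of these genes are also used by other cells: Fabp4 by capillary endothelium and macrophages, Lpl by muscle and macrophages, Plin4 by muscle and Pparg by macrophages and epithelia.

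Levels are CPM, counts divided by the library total and put on a common scale after adjustment of the totals by the trimmed mean of M-values (TMM), given as mean ± SD over tumours. Differences are log2 fold changes, p95HER2 minus EV, with a standard error (SE), from edgeR's quasi-likelihood test over all 17123 genes that passed a filter on low counts. A gene was called when its p, adjusted by Benjamini and Hochberg over all genes tested, was under 0.05. Library totals were 35030920 to 38464541 counts in EV and 32686558 to 34804640 in p95HER2 libraries, 2 ranges that do not meet. With all libraries thinned to the smallest total, the number of adipocyte genes called was the same, 7. Reads counted under Erbb2, which encodes HER2, came to 67.9 ± 4.64 CPM (EV, n = 10) and 158 ± 37.7 CPM (p95HER2, n = 8), with every p95HER2 tumour above every EV tumour. EV 1 stood apart from all other libraries: the epidermal keratin gene Krt1 had 856 counts in it and at most 2 in any of the other 17, and its summed level of 12 skeletal muscle markers, 102 CPM, was the lowest of the 18.

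Of the 10 genes, 9 passed the filter and 7 of these were lower in p95HER2 tumours, with none higher. Among all genes tested 4.45% were lower and 5.73% higher, 10.2% in either direction. The median log2 fold change of the 9 genes was -1.79, beside -0.0074 over all genes tested. Since the genes were chosen with earlier results of these data known, these shares and medians are no test of the set. The 7 were the adipokine gene Adipoq, the lipid droplet genes Plin1, Plin4 and Cidec, the protease gene Cfd, and the lipid handling genes Fabp4 and Lpl. Retn did not pass, Pparg was near the same level in both groups, and Lep was too scarce to be tested. The number called was 4 without EV 2, without EV 9 or without p95HER2 4, and 3 without p95HER2 2 or without p95HER2 5. In bulk samples fewer fat cells, less RNA per fat cell and changes in other cells that use these genes cannot be told apart.

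The 10 genes differed in which EV tumours were high. In Adipoq, Plin1, Cidec, Cfd, Retn and Lep the highest values of all 18 tumours were those of EV 1 and EV 2, and both tumours together held from 57.1% (Cidec) to 80.4% (Lep) of the EV counts. In Plin4, Lpl and Pparg they held 20.6% to 22.9%, and in Fabp4 30.0%. The tests are therefore also given without both libraries, for the genes that passed the filter there, an alternative chosen after the data were seen. Without them 8 of the genes passed the filter, and 3 were called lower, Adipoq, Plin4 and Lpl, where 5.69% of all 16967 genes tested were lower. The median of the 8 was then -1.08, beside -0.0059 over all genes tested.

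**Figure D1:**
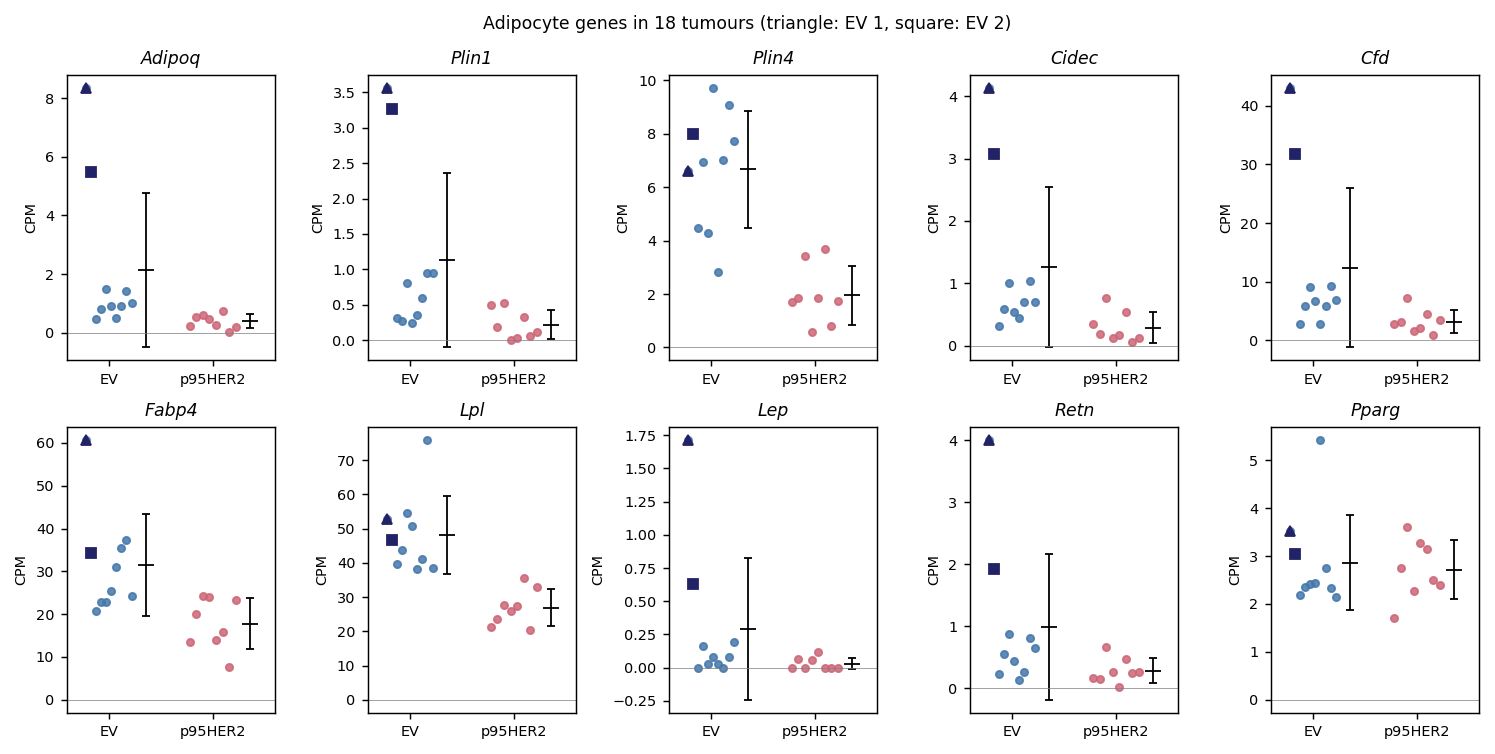
CPM of the 10 adipocyte genes in each tumour, with EV in blue and p95HER2 in red; bars give the mean ± SD, a triangle marks EV 1 and a square EV 2. EV 1 and EV 2 lie above all other tumours for Adipoq, Plin1, Cidec, Cfd, Lep and Retn but not for Plin4, Lpl or Pparg.

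The stretches before the start sites of 5 of these genes are shown. Of them, 4 (Adipoq, Cidec, Plin1 and Lep) were highest in EV 1 and EV 2 and the fifth, Pparg, was not. Sequences are from RefSeq (GRCm38.p6, the same build as mm10), whose table held 8 of the 10 genes. Each runs 5′ to 3′ towards the start, begins 250 bases before it, and ends at the start or before the first base that GENCODE gives as exon of the gene. Capitals mark matches on either strand to TTGCNNAA, a core of the site bound by C/EBP factors, and to CCAAT or its reverse complement ATTGG. They lie at chr16:23146286-23146535 (Adipoq, plus strand), chr6:113434765-113435014 (Cidec, minus strand, the downstream one of its 2 starts), chr7:79732904-79733026 (Plin1, minus strand), chr6:29059971-29060219 (Lep, plus strand) and chr6:115421816-115422065 (Pparg, plus strand, the most downstream of its 3 starts).
Adipoq: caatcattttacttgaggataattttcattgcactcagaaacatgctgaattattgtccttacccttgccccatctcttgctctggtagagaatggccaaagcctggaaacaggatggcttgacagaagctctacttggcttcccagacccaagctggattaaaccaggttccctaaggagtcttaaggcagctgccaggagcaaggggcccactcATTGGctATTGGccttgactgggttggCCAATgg
Cidec: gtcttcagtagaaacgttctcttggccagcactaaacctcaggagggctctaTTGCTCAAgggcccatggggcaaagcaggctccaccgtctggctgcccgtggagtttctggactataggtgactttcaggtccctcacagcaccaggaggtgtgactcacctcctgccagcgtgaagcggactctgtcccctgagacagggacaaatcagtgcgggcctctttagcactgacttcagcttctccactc
Plin1: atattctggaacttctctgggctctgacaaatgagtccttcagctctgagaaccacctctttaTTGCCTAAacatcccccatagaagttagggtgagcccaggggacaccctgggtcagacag
Lep: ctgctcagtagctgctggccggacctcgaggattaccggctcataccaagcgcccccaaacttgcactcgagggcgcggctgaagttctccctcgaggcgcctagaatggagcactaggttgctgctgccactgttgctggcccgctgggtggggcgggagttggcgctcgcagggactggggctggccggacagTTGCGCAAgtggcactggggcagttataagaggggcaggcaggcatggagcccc
Pparg: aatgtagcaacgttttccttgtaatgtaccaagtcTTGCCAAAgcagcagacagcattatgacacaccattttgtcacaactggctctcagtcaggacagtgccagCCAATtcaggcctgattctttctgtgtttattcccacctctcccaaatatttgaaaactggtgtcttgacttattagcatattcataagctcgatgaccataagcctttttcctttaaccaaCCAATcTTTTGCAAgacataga

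TTGCNNAA was found in the 250 bases before 4 of the members' 11 starts, and in 9.56% of all 32851 promoters in the table. The 4 were starts of Cidec, Plin1, Lep and Pparg, and the starts of Cidec and Pparg that are not shown held no match to it. Lep holds it as the palindrome TTGCGCAA, 55 bases before the start, which 0.164% of promoters hold. Plin1 holds a second match, TTGCCCAA, 58 bases before its RefSeq start, in a stretch that GENCODE gives as exon and that is not shown. CCAAT was found before 4 of the 11 starts, those being of Adipoq, Plin4 and Pparg, and in 33.9% of promoters. The pattern of a PPAR response element, 2 copies of AGGNCA with 1 base between them, was found in none of the members' windows and in 0.338% of all promoters. Cfd and Retn, which were also highest in EV 1 and EV 2, held no match to any of these patterns and are not shown. A match describes letters in a short window, and its absence says nothing of the factor.

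Adipoq encodes adiponectin, a hormone made almost wholly by fat cells (ENSMUSG00000022878, chromosome 16, 23146536 to 23158028, plus strand). In EV tumours it ran from 0.460 to 8.36 CPM with a median of 0.960, and in p95HER2 tumours from 0.0302 to 0.750 CPM with a median of 0.367. EV 1 (8.36 CPM) and EV 2 (5.49 CPM) lay far above the rest, the next EV tumour being at 1.48 CPM, while 8 of 10 EV tumours still lay above the highest p95HER2 tumour. The log2 fold change was -2.44 (SE 0.65, edgeR adjusted p = 0.0239), and it was -1.26 (SE 0.37, edgeR adjusted p = 0.0331) without EV 1 and EV 2. Of the 8 p95HER2 tumours, 8 lay below the EV median. Adipoq was scarce in all tumours: the p95HER2 libraries held 1 to 25 counts each.

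Plin1 encodes perilipin 1, which coats the fat droplet and controls access of lipases (ENSMUSG00000030546, chromosome 7, 79720218 to 79732903, minus strand). It ran from 0.247 to 3.57 CPM in EV tumours (median 0.699) and from 0 to 0.525 CPM in p95HER2 tumours (median 0.150), with 0 counts in p95HER2 4. Its log2 fold change was -2.36 (SE 0.69, edgeR adjusted p = 0.0358). That call ended without EV 1 and EV 2, where the log2 fold change was -1.35 (edgeR adjusted p = 0.0957), and in 7 of the 18 fits that left out 1 tumour (EV 2, EV 9 and p95HER2 2, 4, 5, 7 or 8, edgeR adjusted p up to 0.0663).

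Cidec, which fuses small droplets into a large one (ENSMUSG00000030278, chromosome 6, 113424634 to 113435760, minus strand), was likewise highest in EV 1 and EV 2. It ran from 0.316 to 4.14 CPM in EV tumours (median 0.703) and from 0.0604 to 0.758 CPM in p95HER2 tumours (median 0.177). The groups overlapped, with 4 of 10 EV tumours above the highest p95HER2 tumour. Its log2 fold change was -2.11 (SE 0.58, edgeR adjusted p = 0.0255), and -1.21 (edgeR adjusted p = 0.0523) without EV 1 and EV 2, which was not called. Leaving out p95HER2 2, 4 or 5 ended the call as well (edgeR adjusted p up to 0.0521).

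Among the adipokines Adipoq, Cfd, Retn and Lep, Cfd had the highest mean level in both groups, in CPM and per kilobase. It encodes adipsin, the complement factor D that cleaves factor B in the alternative pathway (ENSMUSG00000061780, chromosome 10, 79890853 to 79892655, plus strand). EV tumours ran from 2.77 to 43.1 CPM (median 6.76) and p95HER2 tumours from 0.907 to 7.14 CPM (median 2.94). EV 1 had 43.1 and EV 2 31.7 CPM, and no other tumour passed 9.23 CPM. The log2 fold change was -1.95 (SE 0.58, edgeR adjusted p = 0.0415). Without EV 1 and EV 2 the EV mean was 6.15 ± 2.46 CPM in place of 12.4 ± 13.6 CPM, beside 3.20 ± 1.96 CPM in p95HER2 tumours, and the log2 fold change was -0.94 (edgeR adjusted p = 0.0972). Any of 11 single tumours ended the call when left out (EV 1, 2, 5 or 9, or a p95HER2 tumour other than p95HER2 3, edgeR adjusted p up to 0.0794).

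Retn encodes resistin, an adipokine of mouse fat (ENSMUSG00000012705, chromosome 8, 3655770 to 3660110, plus strand). It ran from 0.138 to 4.004 CPM in EV tumours (median 0.604) and from 0.0285 to 0.671 CPM in p95HER2 tumours (median 0.253). Its log2 fold change of -1.79 (SE 0.62) was not called by edgeR (adjusted p = 0.0708) nor by limma voom (adjusted p = 0.125), and was called by DESeq2 (adjusted p = 0.0155). Without EV 1 and EV 2 it no longer passed the filter on low counts.

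Lep encodes leptin, the hormone by which fat reports energy stores to the brain (ENSMUSG00000059201, chromosome 6, 29060220 to 29073877, plus strand). It had 107 counts over the EV tumours, 63 in EV 1 and 23 in EV 2, and 8 counts over the p95HER2 tumours, of which 5 had none. In EV 1 and EV 2 together it was at 1.18 CPM (95% exact Poisson interval 0.940 to 1.45), in the other 8 EV tumours at 0.0714 CPM (0.0442 to 0.109) and in p95HER2 tumours at 0.0296 CPM (0.0128 to 0.0583). These intervals cover counting error only. With no filter on low counts edgeR gave a log2 fold change of -3.16 (SE 1.14, adjusted p = 0.140).

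Plin4 encodes perilipin 4, a coat protein of small droplets in fat and muscle (ENSMUSG00000002831, chromosome 17, 56100591 to 56109803, minus strand). EV tumours ran from 2.82 to 9.73 CPM (median 6.98) and p95HER2 tumours from 0.567 to 3.69 CPM (median 1.80). EV 1 (6.62 CPM) and EV 2 (7.98 CPM) lay within the range of the other EV tumours, and 9 of 10 EV tumours, all but EV 7, lay above the highest p95HER2 tumour. The log2 fold change was -1.77 (SE 0.31, edgeR adjusted p = 0.00198), and -1.73 (SE 0.34, edgeR adjusted p = 0.00505) without EV 1 and EV 2. The gene overlaps Hdgfl2 on the other strand, and since the sources do not state the strand setting of the counting, reads of the pair may not be told apart. Hdgfl2 had 76.0 ± 4.47 CPM in EV against 80.6 ± 4.09 CPM in p95HER2 tumours (edgeR adjusted p = 0.192).

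Lpl encodes lipoprotein lipase, which frees fatty acids from circulating lipoproteins at the capillary wall (ENSMUSG00000015568, chromosome 8, 68880491 to 68907448, plus strand). It ran from 38.1 to 75.9 CPM in EV tumours (median 45.3) and from 20.4 to 35.7 CPM in p95HER2 tumours (median 26.7), and it was the only one of the 9 tested genes whose groups did not overlap. Of all genes tested 0.111% had every p95HER2 tumour below every EV tumour. The log2 fold change was -0.84 (SE 0.14, edgeR adjusted p = 0.0011), with -0.83 (edgeR adjusted p = 0.00359) without EV 1 and EV 2.

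Fabp4 encodes the fatty acid carrier aP2 (ENSMUSG00000062515, chromosome 3, 10204088 to 10208576, minus strand). It ran from 20.7 to 60.7 CPM in EV tumours (median 28.2) and from 7.65 to 24.1 CPM in p95HER2 tumours (median 17.9). The groups overlapped, with 7 of 10 EV tumours above the highest p95HER2 tumour. Its log2 fold change was -0.82 (SE 0.24, edgeR adjusted p = 0.0345), and the call ended without EV 1 and EV 2 (-0.63, edgeR adjusted p = 0.0609) and without any 1 of EV 2, 7 or 9 and p95HER2 1, 2, 5 or 6 (edgeR adjusted p up to 0.0701).

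Pparg, the master regulator of fat cell formation (ENSMUSG00000000440, chromosome 6, 115360951 to 115490399, plus strand), ran from 2.14 to 5.43 CPM in EV tumours (median 2.42) and from 1.72 to 3.62 CPM in p95HER2 tumours (median 2.63). The ranges overlapped, with only EV 7 above the highest p95HER2 tumour and only p95HER2 1 below the lowest EV tumour. Of the 8 p95HER2 tumours, 3 lay below the EV median. The log2 fold change was -0.08 (SE 0.18, edgeR adjusted p = 0.832), and -0.02 (SE 0.20, edgeR adjusted p = 0.953) without EV 1 and EV 2. The highest EV tumour was EV 7, which had neither a high Adipoq nor a high Cfd level. Of the 18 tumours EV 7 had the highest sums of 12 macrophage markers and of 10 genes of fat cell progenitors. On log2 scales Pparg against the macrophage sum had Pearson r = 0.68 over the EV tumours (permutation, adjusted p = 0.277). Without EV 3 and EV 7 it was 0.13 (exact permutation, adjusted p = 0.918). The source of the high Pparg value was not tested. The counts do not separate the fat cell isoform of Pparg from the isoform of other tissues.

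**Figure D2:**
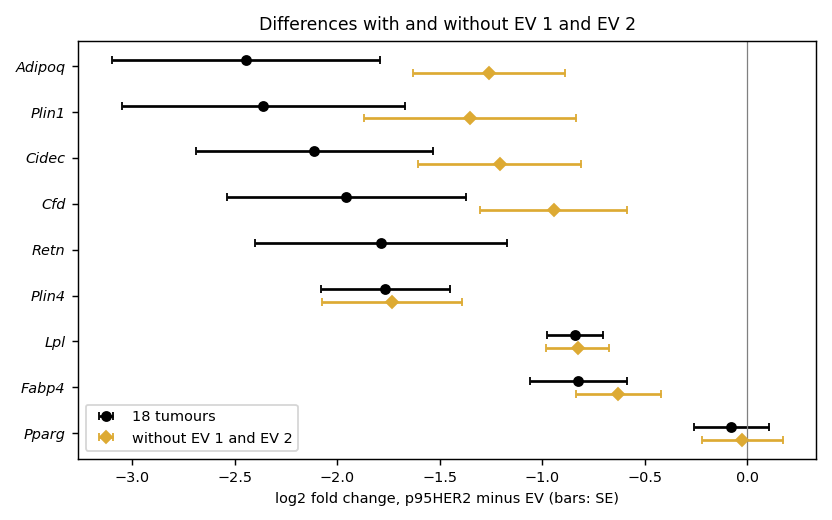
Log2 fold change, p95HER2 minus EV, with its SE for the 9 genes tested, from all 18 tumours (black circles) and without EV 1 and EV 2 (yellow diamonds; Retn did not pass the filter there). The values of Adipoq, Plin1, Cidec and Cfd moved towards 0 without both tumours, from -2.44 to -1.26 for Adipoq, while those of Plin4, Lpl and Pparg changed little, from -1.77 to -1.73 for Plin4.

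Compared per kilobase of exon, Cfd had the highest level in EV tumours, 13.5 ± 14.8 CPM per kilobase, followed by Fabp4 at 7.02 ± 2.64 and Lpl at 4.60 ± 1.09. Adipoq (1.54 ± 1.91), Plin4 (1.15 ± 0.38), Pparg (0.969 ± 0.337), Cidec (0.677 ± 0.692), Retn (0.627 ± 0.744), Plin1 (0.244 ± 0.266) and Lep (0.0869 ± 0.159) followed on the same scale. Of neighbours in this order, only Lpl and Adipoq differed by more than the larger of their SDs. Without EV 1 and EV 2 the order was Cfd (6.67 ± 2.67 CPM per kilobase, n = 8), Fabp4 (6.13 ± 1.40), Lpl (4.56 ± 1.23), Plin4 (1.13 ± 0.42), Pparg (0.934 ± 0.371) and then Adipoq (0.677 ± 0.269), which thus came after Plin4 and Pparg. In p95HER2 tumours Fabp4 was first at 3.96 ± 1.34 CPM per kilobase, ahead of Cfd (3.47 ± 2.12) and Lpl (2.57 ± 0.513), and Pparg (0.918 ± 0.209) stood above Plin4 (0.339 ± 0.191) and Adipoq (0.282 ± 0.177). The exon length is that of all transcripts of a gene joined, so levels of genes with rare long transcripts are understated.

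**Figure D3:**
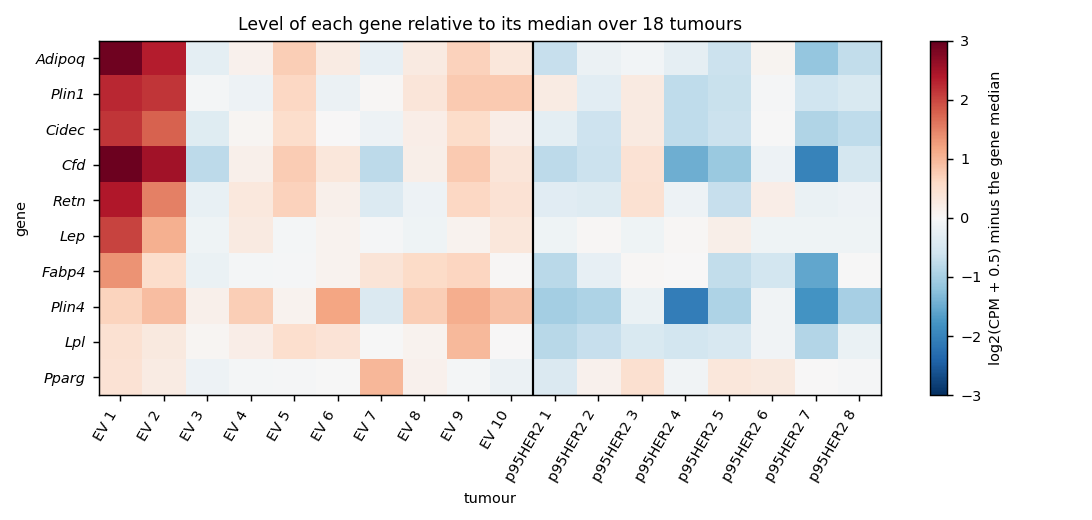
Level of each adipocyte gene in each tumour as log2(CPM + 0.5) minus the median of the gene over the 18 tumours, with EV left of the black line and p95HER2 right of it. The first 6 genes are darkest red in EV 1 and EV 2, whereas Plin4 and Lpl are blue across the p95HER2 tumours and Pparg is highest in EV 7.

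The genes were next compared with Adipoq within groups, on log2(CPM + 0.5), as 16 relations with permutation p-values adjusted over them. Since EV 1 and EV 2 stand apart from the other EV tumours, values are given for the other 8. There Cfd followed Adipoq with Pearson r = 0.97 and Spearman rho = 0.93 (exact permutation, n = 8, p = 0.000397 and 0.00223, adjusted p = 0.00496 and 0.0179). Cidec followed with r = 0.97 and rho = 0.95 (exact permutation p = 0.00062 and 0.00114, adjusted p = 0.00496 and 0.0179), and Retn with r = 0.90 and rho = 0.88 (exact permutation p = 0.00342 and 0.00724, adjusted p = 0.0182 and 0.0386). Without EV 3 and EV 7, the tumours farthest from the Adipoq median, r was 0.98 for Cfd, 0.96 for Cidec and 0.77 for Retn, and with 6 tumours left none passed adjustment (exact permutation, adjusted p = 0.122, 0.122 and 0.324).

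The other 5 relations in these EV tumours did not pass: Lpl had r = 0.75 and rho = 0.62 (exact permutation p = 0.0323 and 0.115, adjusted p = 0.129 and 0.23), Plin1 r = 0.73, Plin4 0.49, Fabp4 0.27 and Pparg -0.45 (exact permutation, adjusted p from 0.137 to 0.506), with rho of 0.71, 0.31, 0.38 and -0.14 (exact permutation, adjusted p from 0.154 to 0.752). Among the 8 p95HER2 tumours none of 8 passed, with r from 0.40 for Plin1 to 0.70 for Cfd (exact permutation, adjusted p from 0.137 to 0.360) and rho from 0.40 for Plin1 to 0.81 for Cidec (exact permutation, adjusted p from 0.0871 to 0.402). In p95HER2 libraries Adipoq had 1 to 25, Plin1 0 to 18, Cidec 2 to 26 and Retn 1 to 23 counts, against 675 to 1191 counts of Lpl.

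Levels were also set against the summed CPM of markers of 3 other cell types within each group, 54 relations chosen after the data were seen. By Pearson's r 2 passed adjustment, both in p95HER2 tumours, and by Spearman's rho these 2 and Cfd against muscle in p95HER2 tumours (rho = 0.93, exact permutation p = 0.00223, adjusted p = 0.0402; r = 0.81, p = 0.016, adjusted p = 0.277). Plin4 followed the skeletal muscle sum with r = 0.96 and rho = 0.93 (exact permutation, n = 8, p = 0.000149 and 0.00223, adjusted p = 0.00402 and 0.0402). Its 2 highest p95HER2 tumours, p95HER2 6 (3.69 CPM) and p95HER2 3 (3.41 CPM), had the highest muscle sums of their group, 3211 and 2374 CPM, and its 2 lowest, p95HER2 4 (0.567 CPM) and p95HER2 7 (0.786 CPM), the lowest, 321 and 690 CPM. Without p95HER2 4 and p95HER2 7, r was 0.92 (exact permutation p = 0.00833, adjusted p = 0.225).

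Fabp4 followed the endothelial sum in p95HER2 tumours with r = 0.98 and rho = 0.98 (exact permutation, n = 8, p = 7.4e-05 and 0.000397, adjusted p = 0.00402 and 0.0214). Without p95HER2 7 and p95HER2 1, r was 0.96 (exact permutation p = 0.00417, adjusted p = 0.225). In the 10 EV tumours neither relation passed: Plin4 against muscle had r = 0.20 and rho = 0.59 (permutation p = 0.593 and 0.0797, adjusted p = 0.781 and 0.388), and Fabp4 against endothelium r = 0.50 and rho = 0.61 (permutation p = 0.146 and 0.0668, adjusted p = 0.374 and 0.388). EV 1, with the lowest muscle sum, had a Plin4 level of 6.62 CPM. Without EV 1 and EV 7 the r of Plin4 against muscle was 0.36 (exact permutation, n = 8, p = 0.399). Whether the relations differed between groups was not tested.

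**Figure D4:**
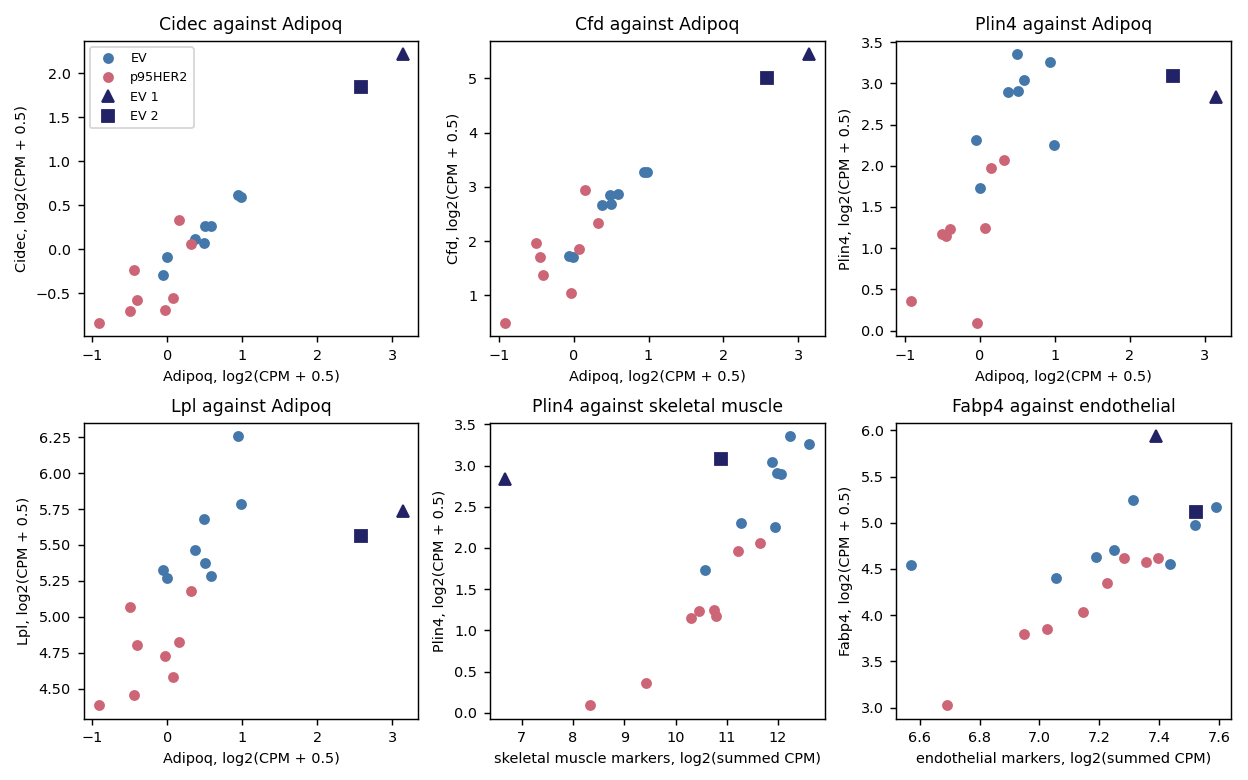
Cidec, Cfd, Plin4 and Lpl against Adipoq, Plin4 against summed skeletal muscle markers and Fabp4 against summed endothelial markers, 1 point per tumour on log2 scales, with EV in blue, p95HER2 in red, EV 1 as a triangle and EV 2 as a square. Cidec and Cfd rise along with Adipoq up to EV 2 and EV 1. For Plin4 and Lpl, EV 1 and EV 2 lie within the range of the other EV tumours. In those other tumours Lpl had r = 0.75 with Adipoq, which did not pass adjustment. The p95HER2 tumours line up in the last 2 panels (r = 0.96 and 0.98).

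Markers of other cell types were read in the same tumours. Of 12 macrophage markers 6 were called lower in p95HER2 tumours and none higher (list median -0.60), with summed levels of 602 to 1362 CPM in EV and 372 to 902 CPM in p95HER2 tumours. Of 12 skeletal muscle markers none was called, though all 12 had a negative log2 fold change (list median -1.005), and sums ran from 102 to 6252 CPM in EV and from 321 to 3211 CPM in p95HER2 tumours. Of 10 endothelial markers none was called (95.1 to 192 CPM in EV and 103 to 168 CPM in p95HER2 tumours). Of 10 tumour epithelium markers Krt19 was called lower, and sums ran from 2095 to 3356 and from 2151 to 2677 CPM. Of 10 fibroblast markers Postn was lower and Mmp2 higher (sums of 1890 to 4450 and 1893 to 3694 CPM). None of these markers was at 0 in all tumours, and the names of Krt19, Postn and Mmp2 were picked with values in view. Their part in the differences of Lpl, Fabp4, Plin4 and the other genes was not tested.

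EV 1 also had high counts of some genes of skin, and it had the highest summed level of the tumour epithelium markers, 3356 CPM. The source of these counts was not tested. Beside Krt1, the cornified envelope gene Lor had 337 counts in EV 1 and 2 to 25 in the other 17 tumours, and the sebaceous gland gene Awat1 had 26 counts and 0 in all others. EV 2, second highest in Adipoq, had 0 counts of Krt1, 10 of Lor and 0 of Awat1. Of 11 keratinocyte and sebaceous markers, 8 were tested, 3 were lower (Krt79, Sbsn and Krt15) and 1, Soat1, was higher in p95HER2 tumours, and sums ran from 266 to 426 CPM in EV and from 239 to 323 CPM in p95HER2 tumours. The skin genes were picked with values in view.

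**Figure D5:**
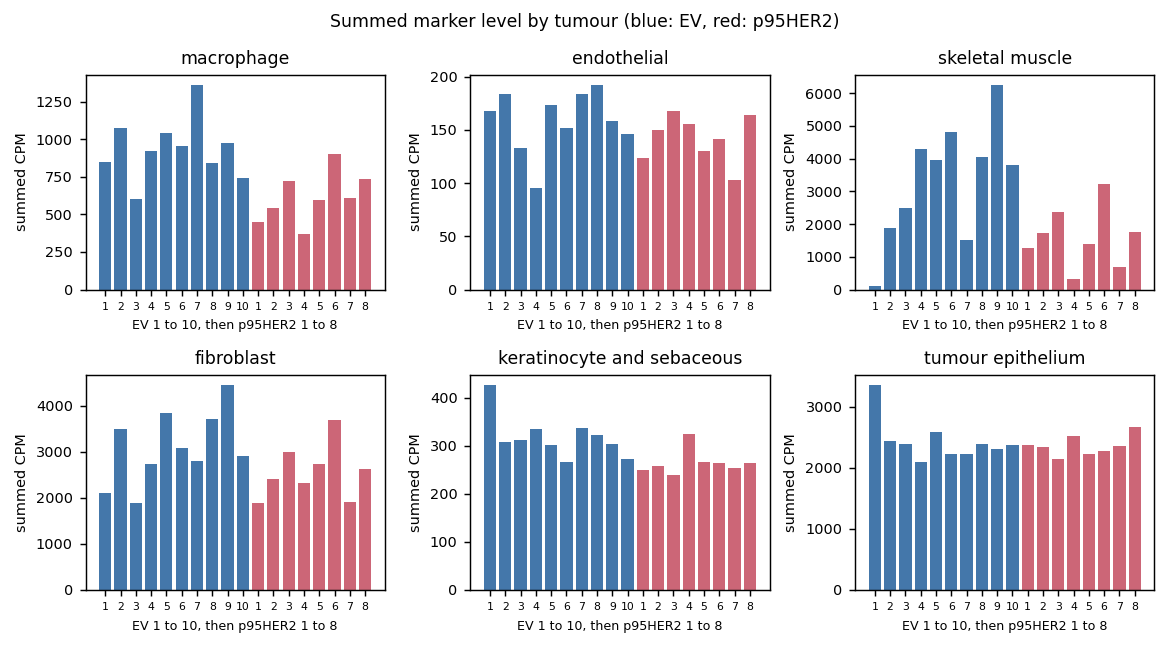
Summed CPM of each marker list in every tumour, EV 1 to 10 in blue and p95HER2 1 to 8 in red, with axes from 0. EV 1 has the lowest skeletal muscle sum (102 CPM) and the highest keratinocyte and sebaceous sum (426 CPM), and EV 9 has the highest muscle sum (6252 CPM).

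The pathway around the 10 genes was read from 9 lists with 101 other genes, of which 86 were tested. Of these 9 were lower and 4 higher in p95HER2 tumours, and their median log2 fold change was -0.13. Over all genes the shares were 4.45% lower and 5.73% higher. Without EV 1 alone 14 were lower, and without EV 4, EV 5 or p95HER2 5 the number of higher genes was 2. Of the 11 called genes that the naming rule covers, 9 were called without EV 1 and EV 2 as well (edgeR adjusted p up to 0.0463) and 2, Mgll and Gpam, were not.

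Of 14 genes for partners of the lipase and for fatty acid uptake, 11 were tested, 2 were lower and 4 higher (list median -0.0013). Cd36, the fatty acid transporter of fat, muscle, capillaries and macrophages, fell from 12.9 ± 4.07 to 5.82 ± 1.44 CPM (log2 fold change -1.15, SE 0.20, edgeR adjusted p = 0.00152), and all 8 p95HER2 tumours lay below the lowest EV tumour. Acsl1, which activates fatty acids, fell from 24.0 ± 3.004 to 18.5 ± 1.14 CPM (edgeR adjusted p = 0.00249). Lmf1, the factor that folds lipoprotein lipase, rose from 35.9 ± 2.66 to 41.8 ± 2.88 CPM (edgeR adjusted p = 0.00983) while Lpl itself fell, and the lipoprotein receptor gene Vldlr rose by 0.31 on the log2 scale (edgeR adjusted p = 0.00861). The other 2 that rose, named after their values were seen, were Fabp5, by 0.29, and Lrp1, by 0.27 on the log2 scale.

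Of 15 lipid droplet and lipolysis genes 13 were tested and 1 was lower, Mgll, encoding monoglyceride lipase, from 8.38 ± 2.24 to 5.78 ± 0.77 CPM (edgeR adjusted p = 0.0242, list median -0.045). That call ended without EV 1 and EV 2 (edgeR adjusted p = 0.0569) and without p95HER2 5 or p95HER2 7. Of the perilipins found in many tissues, named after their values were seen, Plin2 had 261 ± 48.0 CPM in EV against 294 ± 21.4 CPM in p95HER2 tumours (edgeR adjusted p = 0.227). Plin3 had 94.5 ± 9.13 against 96.1 ± 8.24 CPM (edgeR adjusted p = 0.848).

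Of 15 triglyceride synthesis genes 14 were tested and 2 were lower, Gpd1, which makes the glycerol backbone, from 18.9 ± 7.21 to 10.8 ± 2.53 CPM (edgeR adjusted p = 0.035), and the acyltransferase gene Gpam, from 25.03 ± 2.98 to 20.3 ± 3.45 CPM (edgeR adjusted p = 0.0413; list median -0.078). Each call ended in 10 of the 18 fits that left out 1 tumour (edgeR adjusted p up to 0.0718 for Gpd1 and 0.0749 for Gpam), and that of Gpam also without EV 1 and EV 2 (edgeR adjusted p = 0.0617). The mean of Gpd1 in EV 1 and EV 2 was 0.483 times that of the other EV tumours, and without both its log2 fold change was -0.96 (edgeR adjusted p = 0.00529). Of 14 adipogenic transcription factor genes 1 was lower, Nr1h3, encoding the liver X receptor alpha of fat and macrophages, from 5.88 ± 1.85 to 3.13 ± 0.79 CPM (edgeR adjusted p = 0.00496, list median -0.014).

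Of 8 measured genes of the alternative pathway 2 were lower, the anaphylatoxin receptor genes C3ar1, from 27.2 ± 5.87 to 16.01 ± 2.71 CPM (edgeR adjusted p = 0.00174), and C5ar1, from 12.1 ± 2.82 to 8.39 ± 1.61 CPM (edgeR adjusted p = 0.0208; list median -0.34). Both are known from macrophages and other myeloid cells. Of 6 adipokine receptor genes none passed (list median -0.096), the smallest adjusted p being those of Tlr4 and Cdh13 (edgeR adjusted p = 0.261 and 0.485).

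Of 12 other markers of mature fat cells 7 were tested, none passed and all 7 had a negative log2 fold change (list median -0.63). Rbp4, a retinol carrier and adipokine, had 4.38 ± 1.68 CPM in EV against 2.74 ± 0.90 CPM in p95HER2 tumours (edgeR adjusted p = 0.0506), and Trarg1, a regulator of glucose transporter traffic, at 0.822 ± 0.274 and 0.531 ± 0.150 CPM (edgeR adjusted p = 0.0928). Rbp4 was called by DESeq2 (adjusted p = 0.0191), by limma voom (adjusted p = 0.02), with library totals, with the filter at 1 CPM and with thinned libraries (edgeR adjusted p = 0.0451, 0.0478 and 0.0475), and in 4 of the fits that left out 1 tumour. It was not called without EV 1 and EV 2 (edgeR adjusted p = 0.0815).

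Of the same 12 markers 10 had a higher mean in EV 1 and EV 2 than in the other EV tumours, and 2 a lower one. The 2 were Car3, the most abundant of the list and also a gene of muscle, at 0.419 times the other EV tumours, and Rarres2, at 0.937 times. By the summed CPM of the list EV 1 ranked 16 and EV 2 ranked 9 of the 18 tumours, counted from the highest. Among those too scarce to test, the beta-3 adrenoceptor gene Adrb3 had 61 counts in EV 1, 17 in EV 2 and 0 to 7 in the other 16 tumours, and Nnat 44, 47 and 0 to 9 counts, and Car3, Rarres2, Adrb3 and Nnat were picked with values in view.

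Of 7 brown fat markers 4 were tested and 1 was lower, Dio2, a deiodinase that activates thyroid hormone, from 2.96 ± 0.63 to 1.86 ± 0.43 CPM (edgeR adjusted p = 0.00983, list median -0.78). Cox8b (-1.16) and Cox7a1 (-0.885), named after their values were seen, had larger differences but were not called (edgeR adjusted p = 0.146 and 0.132). Their means in EV 1 and EV 2 were 0.238 and 0.317 times those of the other EV tumours, beside 0.242 for the muscle marker Ckm. Ckm was picked with values in view, and whether these 2 genes follow muscle content was not tested. The defining gene of brown fat, Ucp1, had 0.00259 ± 0.00819 CPM in EV against 0.00378 ± 0.0107 CPM in p95HER2 tumours. Of 10 genes of fat cell progenitors none passed (list median -0.24), with Dpp4 and Cd34 closest (edgeR adjusted p = 0.123 and 0.127).

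The non-member genes whose level was most like that of the 10 genes were sought over 18 tumours, among 12885 genes with a mean of at least 1 CPM. Values were centred within each group, so the difference between groups did not enter, and the measure was Pearson r with the mean scaled level of the 10 genes. The 6 highest were Cdo1 (r = 0.90), Vamp3 (0.85), Sema3c (0.83), Sema3d (0.82), Metrnl (0.82) and Il1rl1 (0.79). Cdo1 encodes cysteine dioxygenase, Vamp3 a vesicle fusion protein, Sema3c and Sema3d secreted semaphorins, Metrnl a secreted factor and Il1rl1 the interleukin 33 receptor. Without EV 1 and EV 2, r was 0.84 for Cdo1, 0.62 for Vamp3, 0.74 for Sema3c, 0.59 for Sema3d, 0.61 for Metrnl and 0.65 for Il1rl1. For these values the EV tumours were still centred on the mean of all 10. An offset between the groups could therefore enter them, and they are not the same measure. Between groups Vamp3 fell by 0.23 on the log2 scale (edgeR adjusted p = 0.0031), and the other 5 did not pass, with log2 fold changes from -0.87 for Cdo1 (edgeR adjusted p = 0.0962) to 1.12 for Il1rl1 (edgeR adjusted p = 0.0575). Without EV 1 and EV 2, 3 of these 5 were called higher: Sema3c by 0.46 (edgeR adjusted p = 0.00926), Sema3d by 0.96 (edgeR adjusted p = 0.00432) and Il1rl1 by 1.56 (edgeR adjusted p = 0.0061) on the log2 scale. These 3 were called higher without EV 1 alone as well (edgeR adjusted p = 0.0165, 0.00851 and 0.00723). The 6 genes were picked for following the members, and their means in EV 1 and EV 2 were 1.17 (Vamp3) to 2.76 (Il1rl1) times those of the other EV tumours. Leaving out both tumours lowers the EV mean of genes so picked, so these calls are no separate support. Over all genes 12.2% were called in either direction without EV 1 and EV 2.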

How the data were processed

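RNA of 18 tumours was sequenced from directional mRNA libraries, per the labels' protocols. The values are whole-number counts of reads for each Ensembl gene and tumour, as the authors deposited them. The build mm10, STAR 2.5 and HTSeq 0.6.1 are named in the submitters' processing notes, which state neither strand setting nor annotation release in the form used here. Symbols were found for 54409 of 54532 identifiers. Coordinates and exon lengths are from GENCODE M21 on the same build.

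Genes were filtered with filterByExpr (minimum count 10, minimum total 15), scaled by TMM and tested with a robust quasi-likelihood fit in edgeR 4.0.16 (R 4.3.3), p95HER2 against EV, with Benjamini-Hochberg adjustment. Alternatives were RLE scaling, library totals, no filter, at least 1 CPM in at least 8 tumours, DESeq2 1.42.0, limma 3.58.1 (voom with quality weights), thinned libraries, each tumour left out, and, added after the data were seen, EV 1 and EV 2 left out. Correlations used two-sided permutation p-values, over 40320 arrangements for 8 tumours and 100000 resamples for 10.

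The members and lists were chosen with earlier results of these data known. Named are all members, up to 4 called genes of each pathway list by adjusted p (up to 2 where none was called), and the 6 genes of most similar level.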

Additional observations from a re-analysis of the deposited data

Results flagged for a closer look

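In 5 of 20 combinations of gene and group the highest tumour lay farther from the next than a test for single outliers (Dixon's, at the 95% level) allows. Chance flags about 1 in 20 groups when values are independent and normally distributed. These combinations share tumours and hold genes that vary together, so the number flagged is no test of an excess. All 5 were EV tumours. EV 1 was far above the next EV tumour for Fabp4 (60.7 CPM, next 37.4), Lep (1.72 CPM, next 0.631) and Retn (4.004 CPM, next 1.92). EV 9 was far above the next for Lpl (75.9 CPM, next 54.5). EV 9 also had the highest skeletal muscle sum, 6252 CPM, and the highest fibroblast sum, 4450 CPM, of the 18 tumours. Over the 10 EV tumours Lpl against the muscle sum had r = 0.05 and rho = 0.39 (permutation, adjusted p = 0.931 and 0.556). The source of the high Lpl value was not tested. EV 7 was far above the next for Pparg (5.43 CPM, next 3.51). The test looks for 1 tumour at a time, and it did not pass for Adipoq, Plin1, Cidec or Cfd, where EV 1 and EV 2 were both high.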

How the results depend on the processing

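The number of adipocyte genes called lower, 7 of 9, was 7 with RLE scaling, library totals or thinned libraries, 8 with DESeq2 and 5 with limma voom, which did not call Plin1 (adjusted p = 0.0554) or Cfd (adjusted p = 0.0918). It was 4 with at least 1 CPM in at least 8 tumours, where scarce genes were not tested, 2 with no filter (the cause was not tested), 3 without EV 1 and EV 2, and 3 to 7 with 1 tumour left out. No setting called a member higher. Plin4 and Lpl were called under every alternative, and Adipoq under each in which it was tested but no filter (edgeR adjusted p = 0.0539). Pathway genes called lower were 9, 15 with DESeq2 (the cause was not tested) and 6 to 14 with 1 tumour left out; those called higher were 4, 2 with no filter, and 2 to 6 with 1 tumour left out. Over all genes 1743 were called, and 1289 to 2331 with 1 tumour left out. Values that changed sign were small: Pparg at 0.035 with limma voom and -0.14 to 0.073 with 1 tumour left out (0.073 without EV 7), and Metrnl at 0.028 without EV 1 and EV 2. With a pseudocount of 2, the same number of relations with Adipoq passed, 4 of 16 over all 10 EV and 8 p95HER2 tumours. No paired analysis was possible because the labels give no replicate numbers that pair tumours. Low counts limit Adipoq, Plin1, Cidec, Retn and Lep, each at 0 to 26 counts in p95HER2 libraries.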
